A study of Rattus norvegicus with 6 samples.

Results

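Immediate early genes are switched on within minutes of a stimulus without new protein synthesis, and 10 of them were followed here in rat liver: Jun, Junb, Fos, Egr1, Klf6, Ier2, Ier3, Myc, Dusp1 and Zfp36. All probe sets of the deposited table that the platform annotation assigns to 1 of these symbols were taken, which gave 16 probe sets of 31099. No probe set with several symbols held a member. Of the 16, 15 were bright enough to be tested, and each of the 10 genes had at least 1 of them, among 9200 genes tested in all. For 2 weeks, 3 male rats of the BrlHan:WIST@Jcl(GALAS) stock ate a powdered diet with epsilon-momfluorothrin, a pyrethroid insecticide, and 3 male rats of the same stock ate the diet without it. The labels state that all rats were bought at 4 weeks of age, kept in quarantine for 1 week and sampled at 7 weeks. The titles and treatment protocol state a dietary dose of 3000 ppm and the characteristics state 5000 ppm, so the dose is not settled and the animals are called momfluorothrin rats. Each liver was measured on 1 Affymetrix array as MAS5 signals, linear brightness values per probe set with no read depth behind them.

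Most of the 10 genes encode transcription factors. Jun, Junb and Fos are subunits of the AP-1 factor, which binds DNA as a dimer, Egr1 and Klf6 are zinc finger factors, and Myc drives growth and ribosome production. Ier2 and Ier3 are small response proteins, Dusp1 is a phosphatase that switches off MAP kinases, and Zfp36 (tristetraprolin) binds AU-rich elements and hastens the decay of messenger RNAs. In liver these genes are best known from the priming of hepatocytes after partial hepatectomy and from stress and cytokine responses, and many of their messengers are short-lived. Their transcription is controlled in large part by the serum response factor, which binds the CArG box, and by CREB, which binds the cAMP response element.

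None of the 10 genes passed the adjusted threshold of 0.05 in either direction in limma, whereas 0.217% of all genes tested did. Klf6 and Jun came closest, with signals 1.56 and 1.62 times as high in momfluorothrin as in control livers. At an unadjusted p under 0.05 these 2 genes of 10 were higher and none was lower, against 6.05% of all genes that were higher. Without control replicate 1 or control replicate 3, Klf6 alone remained, and without momfluorothrin replicate 2 the 2 genes were Klf6, higher, and Egr1, lower. Of the 10 log2 differences, taken from the brightest tested probe set of each gene, 8 lay above 0, against 47.5% of all genes, and their median was 0.31 beside -0.01 over all genes. That balance leaned most on momfluorothrin replicate 2. Without that rat the split was 5 above and 5 below 0 with a median of 0.07. Leaving out any other single array kept 7 to 9 of the 10 above 0. Without both replicate 2 arrays the split was 7 above and 3 below 0 with a median of 0.25. Without control replicate 1 the median was 0.14, and without momfluorothrin replicate 3 it was 0.53. Centring each array on its own median put the members' median at 0.48 and 9 of 10 above 0, while it moved the median of all genes to 0.16. The larger and plainer pattern was between animals of 1 diet: momfluorothrin replicate 2 had the highest signal of its group in 9 of the 10 genes, and control replicate 2 in 7, against 32.9% and 32.3% of all genes.

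**Figure D1:**
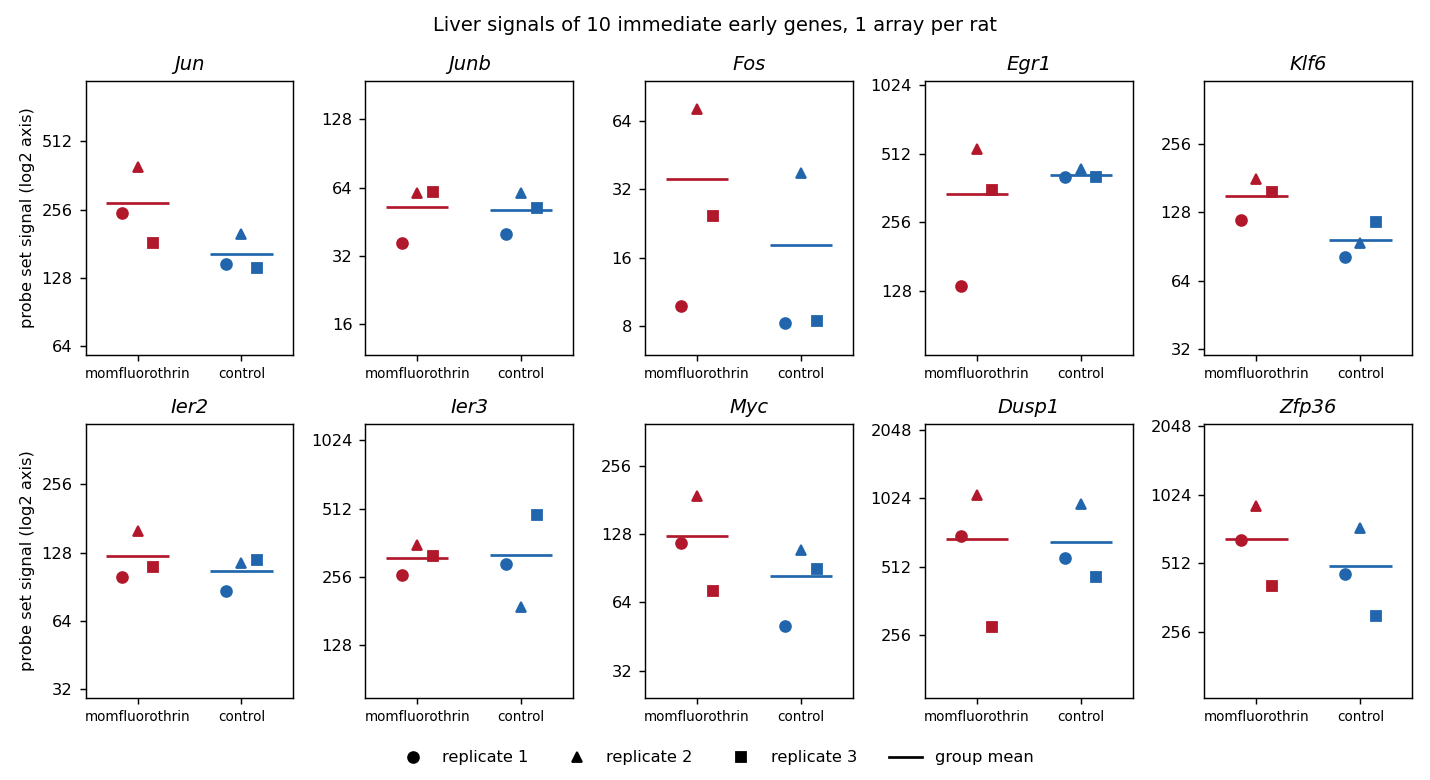
Probe set signals (log2 axis) of the brightest tested probe set of each gene, with 1 point per rat, the point shape for the replicate number and a line at the group mean. Triangles, which mark replicate 2, are the highest point in 9 of 10 momfluorothrin groups and in 7 of 10 control groups, and in Klf6 alone all 3 momfluorothrin points lie above all 3 control points.

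Promoters from RefSeq (assembly GRCr8, 250 bases before to 50 after the start) were matched for 6 of the 10 genes: Junb, Egr1, Klf6, Ier2, Dusp1 and Zfp36. Those of Jun, Fos, Ier3 and Myc were not used here. The 4 shown belong to Klf6, which differed most clearly between diets by its unadjusted p, and to Egr1, Dusp1 and Zfp36, which varied widely between animals. Capitals mark matches to the CArG box or to the full cAMP response element TGACGTCA. The windows are chr17:69458429-69458728 (minus strand) for Klf6, chr18:26736828-26737127 (plus strand) for Egr1, chr10:17184603-17184902 (plus strand) for Dusp1 and chr1:92799059-92799358 (minus strand) for Zfp36.
Klf6: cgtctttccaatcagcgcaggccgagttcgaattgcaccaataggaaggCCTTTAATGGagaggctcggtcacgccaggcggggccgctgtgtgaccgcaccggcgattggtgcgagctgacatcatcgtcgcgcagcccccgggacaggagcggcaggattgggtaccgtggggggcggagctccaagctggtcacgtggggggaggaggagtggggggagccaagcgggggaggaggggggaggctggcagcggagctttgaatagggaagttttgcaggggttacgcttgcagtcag
Egr1: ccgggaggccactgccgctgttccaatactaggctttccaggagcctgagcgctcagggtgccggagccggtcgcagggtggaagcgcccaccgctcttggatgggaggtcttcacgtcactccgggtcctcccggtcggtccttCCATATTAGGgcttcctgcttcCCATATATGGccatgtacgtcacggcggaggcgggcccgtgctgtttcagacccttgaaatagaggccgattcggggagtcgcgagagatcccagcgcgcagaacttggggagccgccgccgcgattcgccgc
Dusp1: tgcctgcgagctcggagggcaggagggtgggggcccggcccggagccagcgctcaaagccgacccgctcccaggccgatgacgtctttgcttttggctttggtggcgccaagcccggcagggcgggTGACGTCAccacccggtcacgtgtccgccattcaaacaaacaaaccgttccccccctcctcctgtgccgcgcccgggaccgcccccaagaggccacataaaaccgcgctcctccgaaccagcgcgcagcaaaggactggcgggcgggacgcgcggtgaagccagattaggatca
Zfp36: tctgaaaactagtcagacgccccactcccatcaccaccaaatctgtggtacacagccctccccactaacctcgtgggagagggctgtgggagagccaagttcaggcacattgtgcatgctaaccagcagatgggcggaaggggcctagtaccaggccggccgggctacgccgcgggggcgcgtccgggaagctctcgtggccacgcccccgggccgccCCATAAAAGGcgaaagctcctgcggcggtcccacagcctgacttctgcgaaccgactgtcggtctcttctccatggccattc

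A CArG box, searched on both strands, was found in 3 of these 6 promoters (Egr1, Klf6 and Zfp36), against 1.64% of 33469 rat promoters of the same length. Egr1 held a pair of them, at bases 146 to 155 and 168 to 177 of the window, whereas Klf6 held 1 at bases 50 to 59 and Zfp36 1 at bases 219 to 228. Counted from the start, the Zfp36 match lay closest, at -32 to -23. The Egr1 matches lay at -105 to -96 and -83 to -74, and that of Klf6 at -201 to -192. The cAMP response element TGACGTCA was found in Dusp1, at bases 127 to 134, and in Ier2, at bases 185 to 192, which is 2 of 6 against 1.83% of all promoters. Its shorter form TGACG, which lies within the full element, was found in Junb, Egr1, Ier2 and Dusp1, 4 of 6 against 21.2%. The AP-1 element TGANTCA (7.33% of all promoters) and the EGR element GCGTGGGCG (0.544%) matched in 0 of the 6. These are matches of letters only, and the arrays measured no binding.

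Klf6, a zinc finger factor that is also a tumour suppressor, was the only member whose brightest probe set separated the diets. Probe set 1387060_at read 118, 179 and 157 in momfluorothrin replicates 1 to 3, against 81.5, 93.6 and 116 in control replicates 1 to 3. The lowest momfluorothrin rat, replicate 1, lay just above the highest control rat, replicate 3. Across all genes, 9.04% had 3 higher signals that did not overlap with control, so 1 such gene of 10 is near the background. On the log2 scale the diets differed by 0.64 ± 0.19 (SE, n = 3 each, adjusted p = 0.264 in limma).

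The other probe set of Klf6 that was bright in both diets had a difference of the same sign. It measures the same gene in the same rats, so it adds no separate observation. Probe set 1388986_at read 127, 145 and 125 in momfluorothrin livers, against 87.0, 111 and 117 in control livers, which differed by 0.34 ± 0.14 on the log2 scale (SE, adjusted p = 0.422 in limma). Probe set 1395557_at read 30.2, 52.5 and 44.6 in momfluorothrin livers, against 23.1, 24.6 and 28.5 in control livers. All 3 control signals lay under their array medians. The momfluorothrin level was 1.46-fold those medians, and so at least 1.46-fold the control level. This probe set passed the filter on low signals only through the momfluorothrin arrays, so its direction adds no support. In neither of the brighter probe sets, 1387060_at and 1388986_at, did the diets overlap, and 9.04% of all genes were likewise higher without overlap.

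Jun, the AP-1 subunit that can pair with itself as well as with Fos proteins, had the next smallest adjusted p. Its brightest probe set, 1389528_s_at, read 247, 393 and 183 in momfluorothrin replicates 1 to 3, against 147, 201 and 141 in control replicates 1 to 3. Momfluorothrin replicate 2 stood far above the rest, and control replicate 2 lay above momfluorothrin replicate 3, so the diets overlapped. On the log2 scale the diets differed by 0.70 ± 0.26 (SE, n = 3 each, adjusted p = 0.367 in limma), and 0.40 without momfluorothrin replicate 2.

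The further probe sets of Jun did not overlap between diets, and 9.04% of all genes were likewise higher without overlap. Both measure the same gene in the same rats as the brightest one, so they add no separate observations. Probe set 1374404_at, which the annotation draws from the same source sequence as the brightest one, read 78.6, 115 and 71.7 in momfluorothrin livers, against 53.0, 66.9 and 52.8 in control livers. It differed by 0.60 ± 0.20 (SE, adjusted p = 0.327 in limma). Probe set 1369788_s_at read 84.4, 145 and 76.8 in momfluorothrin livers, against 75.6, 72.2 and 66.3 in control livers, with a difference of 0.46 ± 0.23 (SE, adjusted p = 0.480 in limma). Here momfluorothrin replicate 3 exceeded control replicate 1 by little, and replicate 2 carried most of the difference.

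Junb, an AP-1 subunit that is in part an antagonist of Jun, was level between diets in its mean. It read 36.4, 60.4 and 60.9 in momfluorothrin replicates 1 to 3, against 40.1, 60.3 and 51.9 in control replicates 1 to 3. The lowest rat of each diet was replicate 1, and the ranges covered each other. The difference of 0.03 ± 0.25 (SE, adjusted p = 0.973 in limma) had a 95% interval of -0.53 to 0.59, and its sign turned without control replicate 1 or either of momfluorothrin replicates 2 and 3.

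Fos, the AP-1 subunit that needs a Jun partner to bind DNA, was at the edge of detection. Probe set 1375043_at read 9.80, 72.4 and 24.4 in momfluorothrin replicates 1 to 3, against 8.26, 37.9 and 8.46 in control replicates 1 to 3. It exceeded the array median on 2 momfluorothrin arrays and 1 control array, the fewest that allow a test. Replicate 2 was the highest rat of each diet. With the lowest rat set to its array median, this was at least 2.79 times the lowest among momfluorothrin rats and at least 1.40 times among control rats. The difference between diets, 0.90 ± 0.81 (SE, adjusted p = 0.698 in limma), had a 95% interval of -0.94 to 2.74 and was 0.51 ± 0.45 (SE) with a pseudocount of 16. It was 0.16 without momfluorothrin replicate 2, 0.53 and 0.55 without control replicates 1 and 3, and 1.60 and 1.63 without momfluorothrin replicate 1 and control replicate 2. The other Fos probe set, 1371283_at, read 19.3, 8.32 and 1.82 in momfluorothrin livers, against 4.29, 2.91 and 20.5 in control livers. It lay under the array median on every array and did not follow the order of the brighter one.

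Egr1, a zinc finger factor that acts early after mitogens, had the most negative difference of the 10. It read 133, 536 and 355 in momfluorothrin replicates 1 to 3, against 403, 438 and 404 in control replicates 1 to 3. The control rats were almost equal, with a highest over lowest ratio of 1.09, while the momfluorothrin rats spanned a ratio of 4.02 and held both the lowest and the highest signal. The diets differed by -0.50 ± 0.41 on the log2 scale (SE, n = 3 each, adjusted p = 0.671 in limma). This value rested on momfluorothrin replicate 1, and it was 0.07 without that rat.

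Myc read 117, 188 and 71.6 in momfluorothrin replicates 1 to 3, against 50.4, 109 and 90.0 in control replicates 1 to 3. Replicate 2 was again the highest of each diet, and momfluorothrin replicate 3 lay below 2 of the control rats. The difference of 0.56 ± 0.37 (SE, adjusted p = 0.592 in limma) had a 95% interval of -0.28 to 1.39. It was 0.21 without momfluorothrin replicate 2, 0.23 without control replicate 1 and 0.90 without momfluorothrin replicate 3.

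Ier2, a short nuclear response protein, read 100.2, 159 and 111 in momfluorothrin replicates 1 to 3, against 86.7, 115 and 118 in control replicates 1 to 3. Its difference of 0.20 ± 0.20 (SE, adjusted p = 0.732 in limma) was -0.0011 without momfluorothrin replicate 2. Ier3, which is linked to survival signalling and the NF-kappaB pathway, read 261, 355 and 315 in momfluorothrin livers, against 291, 189 and 479 in control livers. The control rats held both its lowest signal, in replicate 2, and its highest, in replicate 3, unlike most members. The difference was 0.05 ± 0.29 (SE, adjusted p = 0.959 in limma), with a 95% interval of -0.60 to 0.70, and its sign turned without replicate 2 of either diet.

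The feedback genes Dusp1 and Zfp36 varied more between animals than between diets. Dusp1 probe set 1368146_at read 697, 1061 and 278 in momfluorothrin replicates 1 to 3, against 558, 965 and 463 in control replicates 1 to 3. Both diets had the same order, replicate 2 above replicate 1 above replicate 3, and the ranges overlapped almost wholly. On the log2 scale the diets differed by -0.09 ± 0.45 (SE, adjusted p = 0.952 in limma), with a 95% interval of -1.10 to 0.92, and it turned to 0.08 when each array was centred on its median. Its sign also turned without momfluorothrin replicate 3 (0.45) or control replicate 2 (0.22). A further Dusp1 probe set, 1368147_at, read 181, 259 and 78.0 in momfluorothrin livers, against 144, 299.9 and 110 in control livers. It repeated that order of animals, with a difference of -0.12 ± 0.46 (SE, adjusted p = 0.937 in limma).

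Zfp36 read 650.0, 915 and 408 in momfluorothrin replicates 1 to 3, against 459, 730.1 and 299.7 in control replicates 1 to 3. The highest control rat, replicate 2, lay above 2 of the 3 momfluorothrin rats, so the diets overlapped. On the log2 scale the diets differed by 0.42 ± 0.35 (SE, adjusted p = 0.669 in limma), with a 95% interval of -0.36 to 1.21. This was 0.15 without momfluorothrin replicate 2 and 0.11 without control replicate 3, but 0.73 without momfluorothrin replicate 3 and 0.75 without control replicate 2.

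**Figure D2:**
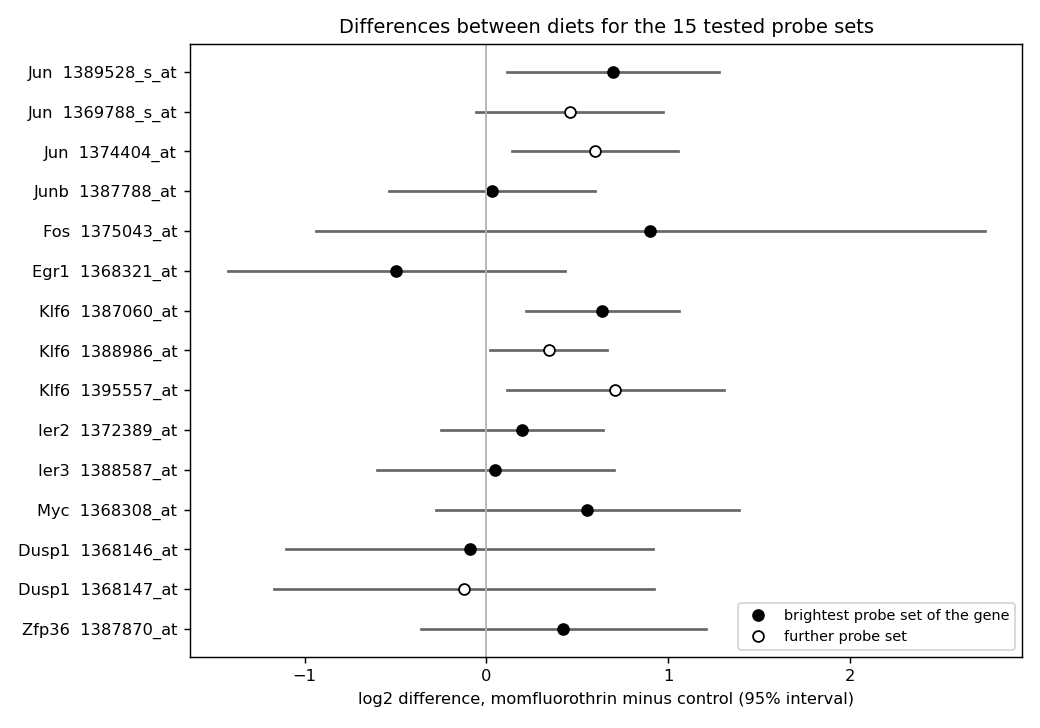
Log2 difference, momfluorothrin minus control, with its 95% interval from limma for the 15 tested probe sets, where filled points mark the brightest probe set of a gene. Before adjustment for multiple tests, intervals of 2 Jun and 2 Klf6 probe sets lie above 0, as does that of Klf6 probe set 1395557_at, which passed the filter only through the momfluorothrin arrays, and the Fos interval is the widest, at -0.94 to 2.74.

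The spread between animals of 1 diet was what the members shared most clearly. Their SD around the group means had a median of 0.56 on the log2 scale, against 0.18 over all genes tested, and all 10 lay above the median of all genes. Fos had an SD of 1.35, which includes signals under the array median, Dusp1 of 0.80 and Egr1 of 0.73, while Klf6 had the lowest at 0.28. The 9 members other than Fos, which lay near the array median, had a median SD of 0.50, against 0.16 over the 6087 genes in their range of mean signal.

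The animals behind that spread were the same ones for several genes. Momfluorothrin replicate 2 lay above the mean of its group in 10 of 10 members, by a median of 0.57 on the log2 scale, whereas 51.3% of all genes did so. Control replicate 2 lay above its group mean in 8 of 10, by a median of 0.29, against 50% of all genes. Control replicate 1 lay below its group mean in 10 of 10, whereas 48.8% of all genes lay above their group mean on that array. Replicate 2 was the highest rat in both diets for Jun, Fos, Egr1, Myc, Dusp1 and Zfp36, 6 of 10 members against 11.9% of all genes. The whole order of replicate numbers, whichever it was, was the same in both diets in 5 of 10 members, against 17.1% of all genes. In Jun, Dusp1 and Zfp36 it was replicate 2 above 1 above 3, which are 3 of 10 members against 3.20% of all genes. That order was read from these same values, and the numbers were not treated as pairs. These are descriptions of 6 animals, and because members of a group move together they count as few independent observations.

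**Figure D3:**
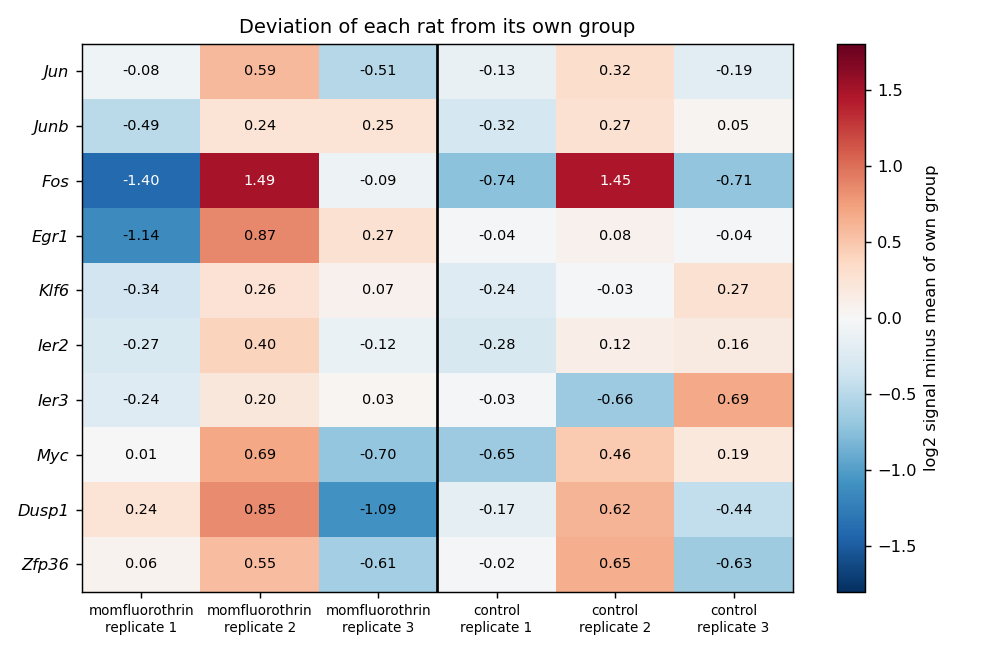
Log2 signal of each member on each array minus the mean of the rat's own diet group, with momfluorothrin rats on the left and control rats on the right. The column of momfluorothrin replicate 2 is above 0 for all 10 genes, beside 51.3% of all genes on that array. That of control replicate 1 is below 0 for all 10, while 48.8% of all genes are above 0 on that array. The deviations of Fos reach 1.49 and 1.45 in replicate 2 of momfluorothrin and control, relative to means that include signals under the array median.

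Among the momfluorothrin animals the lowest rat was not the same for all members. Replicate 1 was lowest for Junb, Fos, Egr1, Klf6, Ier2 and Ier3, and replicate 3 for Jun, Myc, Dusp1 and Zfp36. Momfluorothrin replicate 3 had the highest 3' to 5' signal ratio of the beta-actin control probe sets, 3.12, and replicate 2 the lowest of its group, 2.41, with 2.60 in replicate 1. Control replicates 1 to 3 had 2.24, 2.54 and 2.70, so that replicate 2 was not at an end of its group there. The Gapdh ratio lay between 1.23 and 1.28 in both diets. The part of RNA quality in the order of the animals was not tested.

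Genes whose profile over the 6 arrays was nearest to the members' mean standardised profile were Tmem216, Klf4, Tmem63a, LOC100912143 and Rasip1, with root mean square distances of 0.35 to 0.37 against a median of 1.10 over all genes. Within the members the distance ran from 0.36 for Ier2 to 1.05 for Ier3. Klf4, a zinc finger factor of the same family as Klf6, read 30.8, 67.6 and 39.8 in momfluorothrin replicates 1 to 3, against 32.7, 45.6 and 37.2 in control replicates 1 to 3. It was highest in replicate 2 of each diet, and its difference between diets was 0.19 ± 0.30 (SE, adjusted p = 0.834 in limma). The 5 genes are the closest of 9200 and were found by searching, so their likeness is a description.

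Beyond the 10 genes, 17 of 32 further listed immediate early genes were bright enough to be tested, and none passed the adjusted threshold. Their median log2 difference was -0.04, with 8 above and 9 below 0, beside 8 above and 2 below 0 among the 10 members. Sgk1, a kinase induced by glucocorticoids and serum, read 176, 269 and 153 in momfluorothrin replicates 1 to 3, against 292, 380 and 277 in control replicates 1 to 3. All 3 momfluorothrin rats lay below all control rats, as in 9.23% of all genes, at a difference of -0.70 ± 0.21 (SE, adjusted p = 0.276 in limma). Rhob, an immediate early small GTPase, read 145, 196 and 112 in momfluorothrin livers, against 87.5, 136 and 86.4 in control livers, a difference of 0.54 ± 0.24 (SE, adjusted p = 0.431 in limma). Both genes were highest in replicate 2 of each diet, as Jun was. Among the 17 tested genes, Nr4a2, Klf4, Ccn2, Plk2 and Csrnp1 were so too, beside 11.9% of all genes. That trait was therefore not particular to the 10 members.

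Among 15 tested negative feedback regulators of the same pathways the median was -0.01 and none passed. Dusp6, the phosphatase that switches off ERK, read 348, 539 and 481 in momfluorothrin replicates 1 to 3, against 623, 701 and 898 in control replicates 1 to 3. The diets did not overlap, and 9.23% of all genes were likewise lower without overlap. The difference was -0.71 ± 0.18 (SE, adjusted p = 0.218 in limma). Spry4, an inhibitor of receptor tyrosine kinase signals, read 54.4, 76.2 and 56.4 in momfluorothrin livers, against 29.8, 52.1 and 48.5 in control livers (0.54 ± 0.25, SE, adjusted p = 0.444 in limma). Its diets did not overlap either, in the other direction, as in 9.04% of all genes.

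The kinases and serum response factors upstream of these genes had a median of 0.01 over 24 tested, with none past the threshold. Mapkapk2, the kinase through which p38 acts on Zfp36 protein, differed by -0.59 ± 0.18 and Map2k2, the kinase that activates ERK, by 0.17 ± 0.08 (SE, adjusted p = 0.284 and 0.480 in limma). Both had diets that did not overlap, as 9.23% of all genes did with lower and 9.04% with higher momfluorothrin signals. Downstream, 7 of 20 targets of AP-1 and EGR factors were tested (median 0.02), with Mmp14 at -0.22 ± 0.09 and Icam1 at 0.40 ± 0.24 (SE, adjusted p = 0.420 and 0.549 in limma). For Myc, 8 partners and antagonists had a median of -0.10, with Mxd4, an antagonist, at 0.40 ± 0.14 and Mxi1 at 0.25 ± 0.13 (SE, adjusted p = 0.342 and 0.506 in limma). The 19 tested Myc targets had a median of -0.0032, with Ldha, lactate dehydrogenase A, at -0.46 ± 0.12 and the chaperonin Hspd1 at -0.20 ± 0.07 (SE, adjusted p = 0.234 and 0.349 in limma). Over all 90 tested genes of these lists none passed, and 2 were higher and 6 lower at an unadjusted p under 0.05, against 6.05% and 6.18% of all genes.

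**Figure D4:**
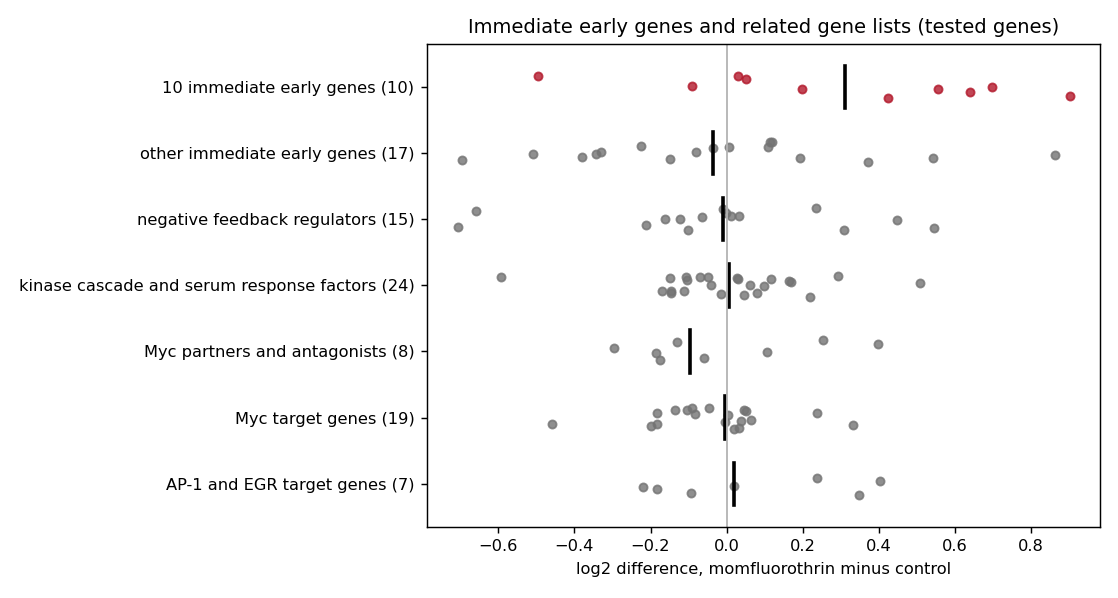
Log2 differences, momfluorothrin minus control, of the tested genes of each list, with the number tested in brackets and a black bar at the list's median. The median of the 10 immediate early genes is 0.31, and those of the related lists lie between -0.10 and 0.02.

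In a piece of liver, fewer cells of a type and less RNA per cell cannot be told apart, and several members are also expressed by other liver cells. Summed signals of 8 of 9 hepatocyte markers were 48515 to 52014 in momfluorothrin and 52592 to 57351 in control livers, so liver parenchyma was present in every sample and its marker sum was lower in all momfluorothrin rats. Of the 8 markers, 6 were below 0 in log2 difference and 2 above. Serpina1 and Cps1, with the smallest p, were at -0.22 and -0.20, and Asgr1 was at 0.27 (adjusted p = 0.304, 0.338 and 0.367 in limma). Kupffer cell markers (9 of 12 tested) summed to 1948 to 2252 in momfluorothrin and 1940 to 2411 in control livers. Their log2 differences were above 0 in 3 and below 0 in 6, with Clec4f at -0.33 and Csf1r at -0.22 (adjusted p = 0.419 and 0.525 in limma). Endothelial markers (9 of 12) summed to 2279 to 2454 in momfluorothrin and 2095 to 2380 in control livers, and stellate cell markers (11 of 12) to 3128 to 3372 in momfluorothrin and 2865 to 3759 in control livers. Of the endothelial markers 3 were above 0 and 6 below. Eng at -0.45 was lower and Lyve1 at 0.31 higher without overlap (adjusted p = 0.222 and 0.429 in limma), as 9.23% and 9.04% of all genes were. Of the stellate cell markers 3 were above 0 and 8 below, with Col1a1 at -0.27 and Dcn at 0.27 (adjusted p = 0.566 and 0.679 in limma). The rats with the highest member signals, replicate 2 of each diet, had the lowest Kupffer sum and the lowest stellate sum of their diet. Sums follow their brightest genes. Clec4f, C1qa, C1qc, Col3a1, Reln and Colec11 were lowest in replicate 2 of both diets, and the other markers of these lists were not. Acta2 (68.5) and Lum (111) were highest of their diet in control replicate 2, and Csf1r (174) and Adgre1 (71.8) in momfluorothrin replicate 2. Control replicate 2 also had the highest hepatocyte and endothelial sums of its diet, whereas momfluorothrin replicate 2 lay between the other momfluorothrin rats in both. Of lymphocyte and neutrophil markers 1 of 14 was tested, and 8, among them Cd3e and S100a8, lay under the array median on every array. Epcam alone was tested of 7 cholangiocyte markers, at 107 to 138 in momfluorothrin and 67.1 to 95.1 in control livers (adjusted p = 0.220 in limma), and 3 markers (Krt7, Cldn7 and Cftr) were under the array median throughout. Array medians were 25.2 ± 1.83 in momfluorothrin and 28.3 ± 1.18 in control livers (SD, n = 3 each, exact permutation p = 0.1, 2-sided, the smallest that 3 against 3 allows). The part of cell makeup and array brightness in the members' values was not tested.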

How the data were processed

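Livers of 6 male rats were each measured on 1 array. The deposited values are linear intensities (signals), and the submitters' processing notes name MAS5 as the tool, without version or settings. The 2% trimmed mean was 100 on every array, so no further scaling was applied.

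Of 31099 probe sets, 57 control probe sets were left out and 15778 were kept, with a signal above the array median on at least 3 of 6 arrays. Gene names came from GEO's platform annotation (20826 probe sets with 1 symbol, 436 with several, 9780 with none), updated by gene ID through RefSeq genes of GRCr8. Where a gene had several kept probe sets, the one brightest on average (log2) stands for it. Log2 signals, with no pseudocount, were compared with limma 3.58.1 in R 4.3.3 (eBayes with an intensity trend, 2-sided, Benjamini-Hochberg over all kept probe sets, threshold 0.05). The fit was tested on simulated data. Labels call the replicates biological and give no batch, so precision rests on 3 animals a diet. Each pathway list is represented by its 2 genes with the smallest p, since none passed. So are the hepatocyte, Kupffer cell, endothelial and stellate cell marker lists, with Asgr1 named besides. The 5 genes nearest in profile are named.

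Replicate numbers are shared between diets. Over kept probe sets the deviations of same-numbered rats correlated at -0.0997, 0.105 and -0.0648, so the numbers were not treated as pairs. The members and lists were chosen with earlier results of these data known. Alternatives changed the filter, scaling, pseudocount, variance model, array weights, block and choice of probe sets, and left out each array. Leaving out both replicate 2 arrays was added after seeing the data.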

Additional observations from a re-analysis of the deposited data

How the results depend on the processing

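No member passed the adjusted threshold under any of the 16 other settings. The smallest adjusted p of a member was 0.0998 in limma, for Klf6 with median centring, and 147 of 158 recomputed member differences kept their sign. Leaving out 1 array at a time gave log2 differences of -0.13 to 0.28 for Junb, -0.93 to 0.074 for Egr1, 0.40 to 0.95 for Jun, 0.16 to 1.63 for Fos, 0.51 to 0.81 for Klf6, 0.21 to 0.90 for Myc, 0.11 to 0.75 for Zfp36, -0.0011 to 0.33 for Ier2, -0.28 to 0.39 for Ier3 and -0.51 to 0.45 for Dusp1. Dusp1 was at 0.081 with median centring, and Ier3 at -0.38 without both replicate 2 arrays. The cause of these turns was not tested. Jun, Fos, Klf6, Myc and Zfp36 stayed above 0 in every setting that could test them. The filter at the 70th percentile left Fos and Junb untested.

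Between 1 and 3 members were at an unadjusted p under 0.05. It was 1 without control replicate 1 or 3 (Klf6) and without both replicate 2 arrays (Jun). The number was 3 with median centring and without momfluorothrin replicate 3 (Jun, Klf6 and Myc). It was also 3 with a replicate block and without control replicate 2 (Jun, Klf6 and Zfp36).

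The number of probe sets past the threshold was 27. It was 70 with median centring, 3 without an intensity trend, 9 without both replicate 2 arrays, and 5 to 28 when 1 array was left out. A replicate block gave 15, with no member among them. None of the 90 listed pathway genes passed in any setting.

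The members' spread between rats limits what 3 animals a diet can show, and Fos lies too near the array median for a firm level.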
